A study of Mus musculus with 2 samples.

Results

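The genes described here encode the pore-forming and accessory subunits of voltage-gated sodium channels (Scn genes), voltage-gated calcium channels (Cacn genes), hyperpolarization-activated pacemaker channels (Hcn genes) and transient receptor potential channels (Trpc, Trpm and Trpv genes). They were taken by gene symbol, which matched 67 of the 24542 symbols in the deposited transcript table, and reads were summed per symbol. Of these 67 genes, 46 held at least 20 reads over the 6 libraries and are counted here. Another 9 held between 3 and 14 reads and 12 held none. The rule also takes Trpc4ap, which encodes a protein associated with a TRP channel, and Trpc5os, an opposite-strand transcript, neither of which is a channel. Scn2a1, a second symbol with the gene ID of Scn2a, is outside the rule and held 10 reads beside the 484 reads of Scn2a.

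RNA was taken from left ventricular muscle of C57BL/6 males at 7 days of infarction, made by a permanent tie around the proximal left anterior descending (LAD) coronary artery. The scar and its border had been removed, so the tissue was the remote muscle. Mice with a knockout of NRK-2, the nicotinamide riboside kinase encoded by Nmrk2, were compared with littermate controls. Both groups had the infarct, and no group without surgery was analysed here. The labels give neither the type of knockout allele nor the age of the mice. They list 1 sample per genotype, while the table has 3 numbered columns of each, written here as control 1 to 3 and KO 1 to 3. No label says whether the 3 libraries came from different animals, so every p-value here measures the spread between libraries, which may be partly technical.

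The opening of a sodium channel carries the upstroke of the cardiac action potential, and calcium entering through L-type channels then triggers release from the sarcoplasmic reticulum and contraction. T-type calcium channels and HCN channels open at more negative voltages and are best known from pacemaker and conduction cells. TRP channels are mostly non-selective cation channels that respond to lipids, calcium, stretch or temperature. In sodium and calcium channels an alpha subunit forms the pore, and beta, alpha2delta and gamma subunits change its gating, trafficking and anchoring.

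Library totals ran from 22377348 to 33086384 counted reads, so that a count of 0 allows up to 0.0839 to 0.147 CPM per library, a limit that covers counting error only. CPM here is reads per 1e+06, scaled by the library total and a TMM factor. It allows 1 gene to be compared between libraries, while the deposited FPKM, which is also divided by transcript length, was used to compare genes with each other. Nmrk2 held 308, 270 and 118 reads in control 1, 2 and 3, and 9 and 0 reads in KO 2 and KO 3. The library labelled KO 1 held 808, against its label, so values without it are given beside the genes that fell, the counts of genes and most genes whose groups stood apart. As a check of the ventricular label, 8 cardiomyocyte markers (Myh6, Myl2, Tnnt2, Tnni3, Actc1, Ryr2, Pln and Mb) summed to 75951, 71882 and 44809 CPM in control 1, 2 and 3, and to 38732, 23154 and 40149 CPM in KO 1, 2 and 3. The atrial myosin light chain Myl7 was at 204, 162 and 0 CPM in the controls and at 127, 1.15 and 0.219 CPM in KO 1, 2 and 3. Its relative Myl4 was at 204, 176 and 2.31 CPM and at 315, 6.23 and 2.52 CPM. Sln, which encodes sarcolipin, was at 25.6, 18.9 and 0 CPM and at 25.4, 0.363 and 0 CPM. By these 3 markers control 1, control 2 and KO 1 carried atrial transcripts that the other 3 libraries nearly lacked. Stard10 of the atrial list was also highest in control 1, control 2 and KO 1. It was at 30.4, 29.7 and 10.2 CPM in the controls and at 16.0, 7.69 and 6.68 CPM in KO 1, 2 and 3. Nppa, Dkk3, Pam, Nr2f1 and Nr2f2 of that list did not follow that order. Nppa was at 442, 571 and 108 CPM in the controls and at 2417, 2347 and 3020.4 CPM in KO 1, 2 and 3.

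Most of these channels did not pass the test between genotypes, and those that did were both of the kinds best known from skeletal muscle. The filter on low counts left 40 channel genes for edgeR's quasi-likelihood test, with p-values adjusted over all 14466 genes tested. None of the 40 rose, against 2.61% of all genes tested. Scn4a and Cacna1s fell, 5% of the 40, against 1.09% of all genes tested. At an unadjusted p under 0.05, 3 were higher and 7 were lower in the knockout (7.5% and 17.5%, against 12.3% and 13.5% of all genes). DESeq2 called 2 higher, Cacng7 among them, and 6 lower (Cacna1h, Cacna1s, Cacnb2, Hcn4, Scn4a and Scn4b), against 7.75% and 9.23% of all genes. Limma on log2(FPKM + 1) called 1 higher (Cacng7) and 2 lower (Scn4a and Scn4b), against 3.66% and 2.32%. The median log2 fold change of the 40 was -0.19, against 0.01 for all genes. By type, 1 of 10 sodium channel genes, 1 of 16 calcium channel genes, 0 of 3 pacemaker genes and 0 of 11 TRP genes passed, with medians of -0.05, -0.43, -1.02 and 0.02. Without KO 1 edgeR called 0 higher and 0 lower of 42 channel genes, and 78 higher and 10 lower of all 14735 genes then tested.

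The groups did not overlap for 12 of the 40. In 3 of them, Cacnb3 and Cacng7 included, each KO library lay above each control library, which is 7.5% of those tested against 16.4% of all genes. In the other 9 each KO library lay below each control library, 22.5% against 14.5%. Those 9 were Scn4b, Scn4a, Cacnb2, Cacna1h, Cacna1s, Hcn4, Scn10a, Cacng6 and Trpv4. The count of such lower genes was 10 with RLE scaling and 8 on the deposited FPKM, where Trpv4 overlapped. The members that passed the filter include genes that passed it through 1 group, so these shares are a description. Without KO 1, a comparison added after the data had been seen, the count was 4 higher and 11 lower of the 40, against 20.7% and 18.8% of all genes.

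**Figure D1:**
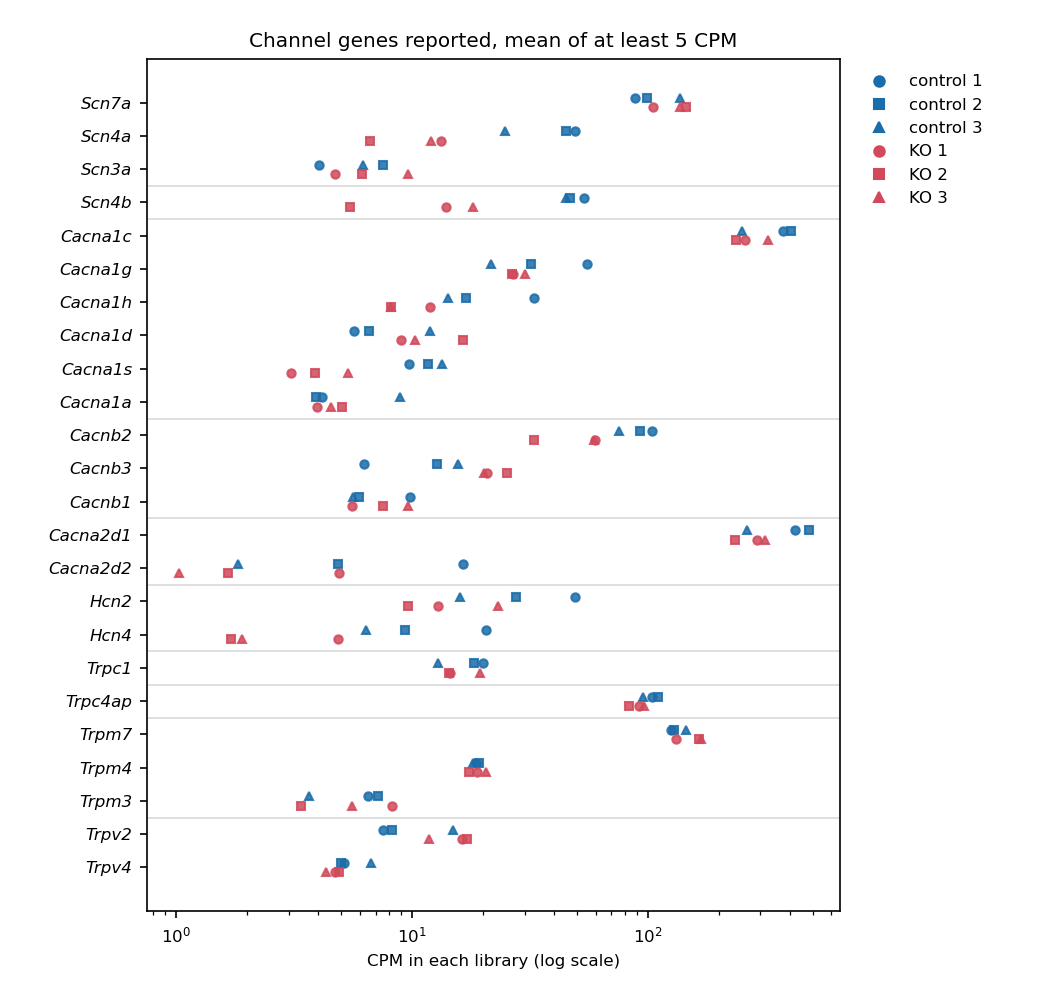
Level of each channel gene reported here with a mean of at least 5 CPM in each of the 6 libraries, in CPM on a log axis, with controls in blue, KO libraries in red and library numbers as symbols. Cacna2d1 and Cacna1c lie above 200 CPM in every library, and the red symbols lie left of all blue symbols for Scn4a, Scn4b, Cacna1h, Cacna1s, Cacnb2, Hcn4 and Trpv4.

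**Figure D2:**
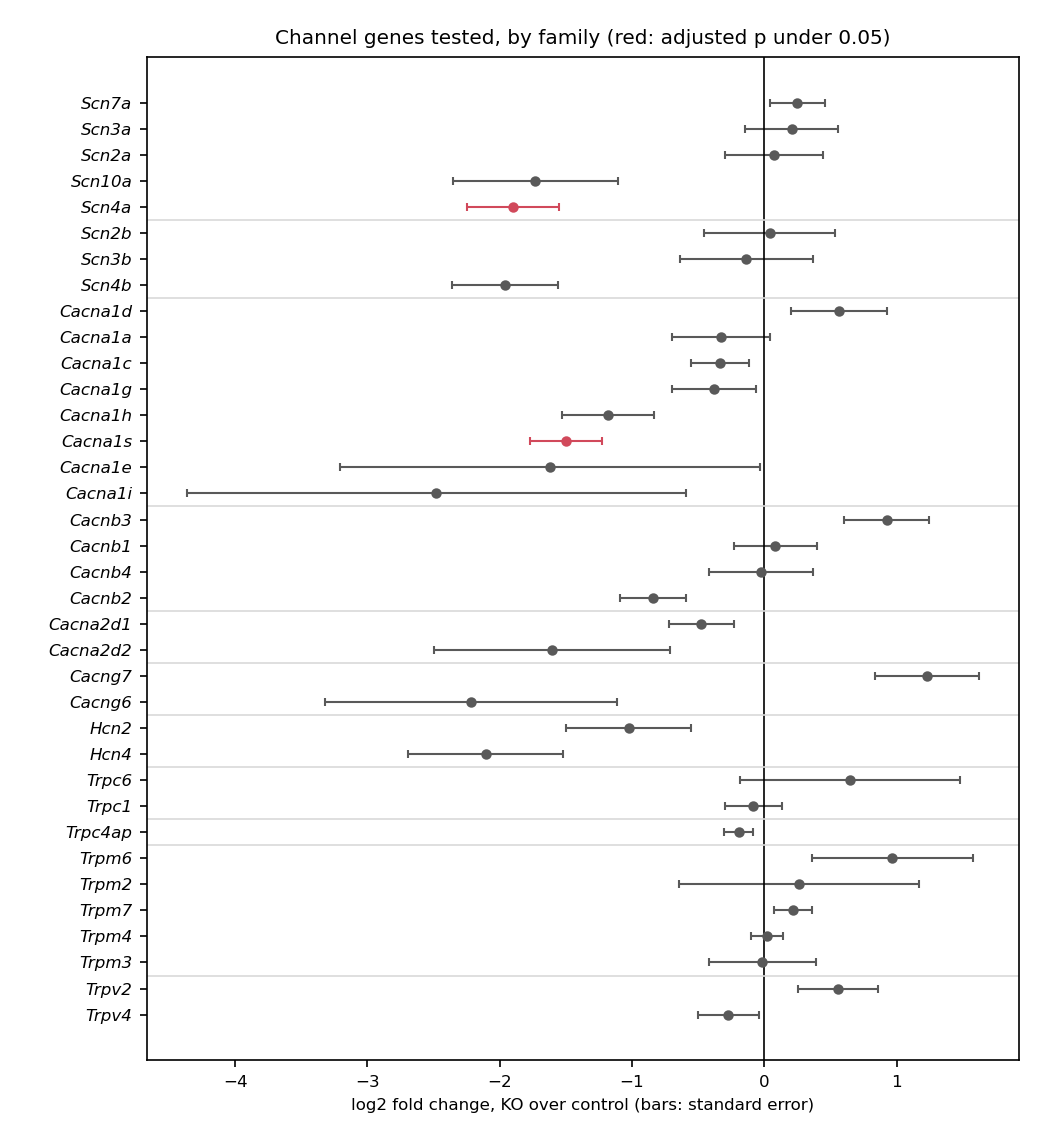
Log2 fold change (KO over control) of the channel genes tested that are reported here, with standard errors from edgeR, grouped by subunit type. Scn4a (-1.90) and Cacna1s (-1.50), in red, are those with an adjusted p under 0.05.

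On the length-corrected scale the L-type channel set of the ventricle was prominent. Cacna2d1, the main alpha2delta subunit of the heart, had a deposited FPKM of 48.8 ± 10.5 in control and 38.2 ± 4.35 in knockout (SD, n = 3 libraries each, as throughout). Trpc4ap was at 30.7 ± 1.26 and 28.7 ± 1.19 FPKM and Cacna1c, the pore of the cardiac L-type channel Cav1.2, at 24.1 ± 3.85 and 20.6 ± 2.95 FPKM. The calcium channel beta subunit Cacnb2, at 22.3 ± 1.88 FPKM, lay within 1 SD of Cacna1c in control and below it in the knockout, at 13.4 ± 3.72 FPKM. The TRP channel kinase Trpm7, at 17.9 ± 3.21 FPKM in control and 22.2 ± 3.25 FPKM in the knockout, lay within 1 SD of Cacna1c in the knockout. In control, Scn7a (14.3 ± 4.80 FPKM) and Scn4b (10.8 ± 0.78 FPKM) lay lower.

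Among the sodium channel pores, Scn4a, the pore of the skeletal muscle sodium channel Nav1.4, fell. It lies on chromosome 11 from 106318593 to 106349390 (mm10) and has 1 deposited transcript. Its level was 49.3, 45.1 and 24.7 CPM in control 1, 2 and 3 and 13.3, 6.65 and 12.0 CPM in KO 1, 2 and 3. The groups did not overlap, although control 3 was nearer to the KO libraries than to the other controls. The means were 39.7 ± 13.2 and 10.7 ± 3.51 CPM (log2 fold change -1.90, SE 0.35, adjusted p = 0.0406). On the length-corrected scale Scn4a was at 5.61 ± 1.46 FPKM in control. Leaving out control 3 kept the call (adjusted p = 0.0155), and leaving out any other library ended it (adjusted p from 0.106 to 0.165, log2 fold change from -1.65 to -2.09). Without KO 1 the log2 fold change was -2.09 (adjusted p = 0.108), and without control 1 and 2 together it was -1.20 (adjusted p = 0.327), a fit with 1 control library, whose spread is taken from the KO libraries.

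Scn7a encodes Nax, a sodium-sensing relative of these channels found in glia, nerve and other cells. Reads gave 88.5, 99.5 and 137 CPM in the controls and 105, 145 and 137 CPM in the KO libraries. These ranges overlapped (log2 fold change 0.25, SE 0.20, adjusted p = 0.480). The neuronal pore Scn3a was lower still, at 4.02, 7.51 and 6.16 CPM in the controls and 4.73, 6.15 and 9.56 CPM in the KO libraries, and also overlapped. Of the other pores, Scn10a, known from sensory neurons, held 15, 23 and 38 reads in control 1, 2 and 3 and 12, 6 and 12 reads in KO 1, 2 and 3, and did not pass (log2 fold change -1.73, adjusted p = 0.143). The 10 Schwann cell and neuron markers summed to 29.9, 32.9 and 29.2 CPM in control 1, 2 and 3 and to 23.2, 15.6 and 13.5 CPM in the KO libraries, with 1 of 8 tested (Kcna1) fallen. The part of these cells in the reads of Scn7a and Scn10a was not tested.

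Of the beta subunits of sodium channels none passed by edgeR. Scn4b, a subunit that favours resurgent sodium current, was at 53.5, 46.9 and 44.96 CPM in the controls and at 13.9, 5.45 and 18.1 CPM in the KO libraries. Each KO library lay below each control, with the controls close together (log2 fold change -1.96, SE 0.40, adjusted p = 0.0504). Scn4b was called by DESeq2, by limma on both FPKM scales, with upper-quartile scaling, with the filter of 5 CPM, without control 3 and without KO 2. EdgeR did not call it with RLE scaling (adjusted p = 0.0536), no filter (0.0570), the most abundant transcript (0.0882) or the replicate block (0.146). Nor did edgeR call it without control 1 (0.141), without control 2 (0.18) or without KO 3 (0.0859). Without KO 1 its log2 fold change was -2.05 (adjusted p = 0.146). The subunits Scn2b and Scn3b had means of at most 4.003 CPM in either genotype and overlapping groups.

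Among the calcium channel pores, the cardiac Cacna1c did not pass the test. The controls held 374, 405 and 251 CPM of it (1, 2 and 3) and KO 1, 2 and 3 held 259, 235 and 323 CPM. Control 3 and the KO libraries shared a range below the other controls (log2 fold change -0.33, SE 0.22, adjusted p = 0.380). The value became 0.13 without control 1 and control 2 and 0.29 with only the most abundant transcript. Cacna1d, the L-type pore of sinoatrial and atrial cells, was at 5.69, 6.55 and 11.9 CPM in the controls and at 8.94, 16.5 and 10.3 CPM in the KO libraries, with overlap. Cacna1a, a neuronal P/Q-type pore, stood at 4.17, 3.90 and 8.88 CPM in the controls and at 3.94, 5.06 and 4.53 CPM in the KO libraries, also with overlap.

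Cacna1s, the pore and voltage sensor of the skeletal muscle L-type channel Cav1.1, fell. It lies on chromosome 1 from 136052901 to 136119822 (mm10). Its level was 9.71, 11.7 and 13.4 CPM in control 1, 2 and 3 and 3.07, 3.89 and 5.37 CPM in KO 1, 2 and 3, from 89 to 331 reads per library. The groups did not overlap, and the highest KO library was well below the lowest control. The means were 11.6 ± 1.86 and 4.11 ± 1.16 CPM (log2 fold change -1.50, SE 0.27, adjusted p = 0.0394). In control its deposited FPKM of 1.79 ± 0.446 was a small part of that of Cacna1c. Leaving out control 3 kept the call (adjusted p = 0.0226), and leaving out any other library ended it (adjusted p from 0.0724 to 0.157). Without KO 1 the log2 fold change was -1.33 (adjusted p = 0.116), without control 1 and 2 together it was -1.70 (adjusted p = 0.185, with control 3 as the lone control), and limma on the deposited FPKM gave an adjusted p of 0.0524 or 0.0603.

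Because Scn4a and Cacna1s are known from skeletal muscle, the 8 markers of that tissue were read beside them. The skeletal myosins Myh4 (0 reads in all 6 libraries), Myh1 (at most 0.441 CPM) and Myh2 (at most 0.122 CPM) and the fast-fibre actinin Actn3 (at most 0.657 CPM) were at or near 0. The fast troponin T gene Tnnt3 was at 0.0981, 0.722 and 0.162 CPM in control 1, 2 and 3 and at 10.5, 5.42 and 10.001 CPM in KO 1, 2 and 3, and rose (adjusted p = 0.0284). The muscle creatine kinase Ckm was at 2687, 2608 and 1353 CPM in the controls and at 1093, 549.5 and 1106 CPM in the KO libraries, below every control, and did not pass by edgeR (log2 fold change -1.27, adjusted p = 0.0970). The 8 summed to 1514 to 3432 CPM in the controls and to 1115 to 2270.1 CPM in the KO libraries, nearly all of it Acta1 and Ckm, which the heart also expresses, and of the 3 tested 1 rose and 0 fell by edgeR (1 lower at an unadjusted p under 0.05 and by DESeq2). The part of skeletal muscle in both channels was not tested.

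The reads of Cacna1s were divided between 2 deposited transcripts, and their shares differed more between genotypes than the gene total. The forms differ by an alternative exon and a small stretch near the end of the coding sequence. NM_001081023 contains exon 29, which lengthens an extracellular linker in the last repeat of the channel, and NM_014193 skips it. As background, the form without exon 29 is the embryonic one of skeletal muscle. The exon is shown because it is the longest stretch that tells the forms apart. Sequences are from the GENCODE M21 transcripts (GRCm38/mm10), 5′ to 3′ on the transcript strand, with the bases present in only 1 form in capitals and 30 flanking bases on each side in lower case. The first is exon 29 of 44, 57 bases at chr1:136104570-136104626 (plus strand), and the second is the same place in the form that skips it.
Cacna1s with exon 29: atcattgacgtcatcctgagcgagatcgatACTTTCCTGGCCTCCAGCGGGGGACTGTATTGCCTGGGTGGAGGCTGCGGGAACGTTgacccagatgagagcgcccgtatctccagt
Cacna1s without exon 29: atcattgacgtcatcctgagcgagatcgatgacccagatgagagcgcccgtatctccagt
At a later junction the form with exon 29 has 15 bases at the end of its exon 42 (chr1:136118428-136118442), and the other form has instead 9 bases at the start of the exon that follows (chr1:136118661-136118669).
Cacna1s later junction, form with exon 29: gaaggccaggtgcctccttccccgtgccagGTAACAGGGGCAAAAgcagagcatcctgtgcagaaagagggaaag
Cacna1s later junction, form without exon 29: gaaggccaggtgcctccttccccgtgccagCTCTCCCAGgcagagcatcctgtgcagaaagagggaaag
All of these stretches are coding and a multiple of 3 bases long, so the reading frame is kept. Their net length, 63 bases, equals the difference between the deposited transcript lengths of 6251 and 6188 bases.

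The form of Cacna1s without exon 29 took 78.3%, 73.2% and 65.9% of the gene's reads in control 1, 2 and 3 and 16.9%, 10.1% and 25.2% in KO 1, 2 and 3. The groups lay far apart, with means of 72.5% ± 6.25 and 17.4% ± 7.56. In CPM, that form was at 7.601, 8.57 and 8.84 in the controls and at 0.518, 0.391 and 1.35 in the KO libraries. The form with exon 29 was at 2.11, 3.13 and 4.58 CPM in the controls and at 2.55, 3.49 and 4.01 CPM in the KO libraries, and these ranges overlapped. The lower total of Cacna1s in the knockout was therefore, as the reads were assigned, a lower level of the form without exon 29. When the transcript with the most reads stood for each gene, Cacna1s had a log2 fold change of -3.46 (adjusted p = 0.0488 by edgeR). That transcript was the form without exon 29, with 617 reads in all against 530. It led only through the controls, and the form with exon 29 led in each KO library. The value therefore gives the same difference again and is no separate support for it.

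Cacna1g, a T-type pore (Cav3.1), showed the other large difference in shares. Its total was 54.9, 31.9 and 21.6 CPM in control 1, 2 and 3 and 26.8, 26.5 and 30.1 CPM in KO 1, 2 and 3. The KO libraries lay within the range of the controls (log2 fold change -0.38, SE 0.32, adjusted p = 0.491), and the value was 0.05 without control 1. Its transcripts differ by exon 14 and by the length of exon 25, NM_009783 having exon 14 and the longer exon 25, and NM_001177888 neither. Exon 14 of 36 has 69 bases at chr11:94439709-94439777 and the extra part of exon 25 has 21 bases at chr11:94425764-94425784, both on the minus strand and shown from the transcript strand with the same use of capitals.
Cacna1g with exon 14: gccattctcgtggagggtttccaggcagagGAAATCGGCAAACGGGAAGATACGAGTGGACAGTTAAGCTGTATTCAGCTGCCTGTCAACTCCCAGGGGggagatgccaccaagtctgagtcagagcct
Cacna1g without exon 14: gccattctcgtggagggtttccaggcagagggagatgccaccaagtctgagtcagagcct
Cacna1g with the longer exon 25: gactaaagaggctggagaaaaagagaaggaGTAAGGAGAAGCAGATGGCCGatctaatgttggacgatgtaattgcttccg
Cacna1g with the shorter exon 25: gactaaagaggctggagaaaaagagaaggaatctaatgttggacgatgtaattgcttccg
Both stretches are coding and a multiple of 3 bases long, and their sum of 90 bases is the difference between the deposited lengths of 8223 and 8133 bases.

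The form of Cacna1g with exon 14 and the longer exon 25 took 38.7%, 86.1% and 92.3% of the gene's reads in control 1, 2 and 3 and 0.645%, 2.11% and 2.30% in KO 1, 2 and 3. The form with neither took 33.5%, 13.7% and 7.30% in the controls and 99.4%, 71.6% and 97.7% in the KO libraries. Another form, NM_001112813, which lacks exon 14 but has the longer exon 25, took 27.9% in control 1 and under 1% in the other libraries. NM_001177890, which has neither and also a shorter exon 8, took 26.3% in KO 2 and no reads elsewhere. Each of the 3 KO libraries, KO 1 included, thus had a form with neither stretch for nearly all of its reads.

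By the most abundant transcript alone, these were the only such cases among 20 channel genes. Each of the 20 had at least 2 transcripts, 200 reads and a read in each library. The share of the most abundant transcript did not overlap between genotypes for 2 of the 20, against 11.6% of 4702 genes of the table chosen in the same way. For both the means were at least 50 percentage points apart, against 1.23%. Less abundant transcripts were not counted in this way, and some also stood apart, by fewer points. NM_009784 of Cacna2d1 took 14.52%, 14.05% and 15.48% in control 1, 2 and 3 and 12.45%, 8.03% and 13.27% in KO 1, 2 and 3. Among the most abundant transcripts, some shares were stable, NM_007578 of Cacna1a taking 100% in each library. Others jumped between libraries of 1 genotype. NM_001346680 of Scn2a took 100%, 100% and 0% of its reads in control 1, 2 and 3 and 0%, 100% and 0% in KO 1, 2 and 3. NM_001311123 of Trpc1 took between 3.11% and 100% in the KO libraries. The sources do not give how reads common to several isoforms were assigned, so shares were not tested.

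**Figure D3:**
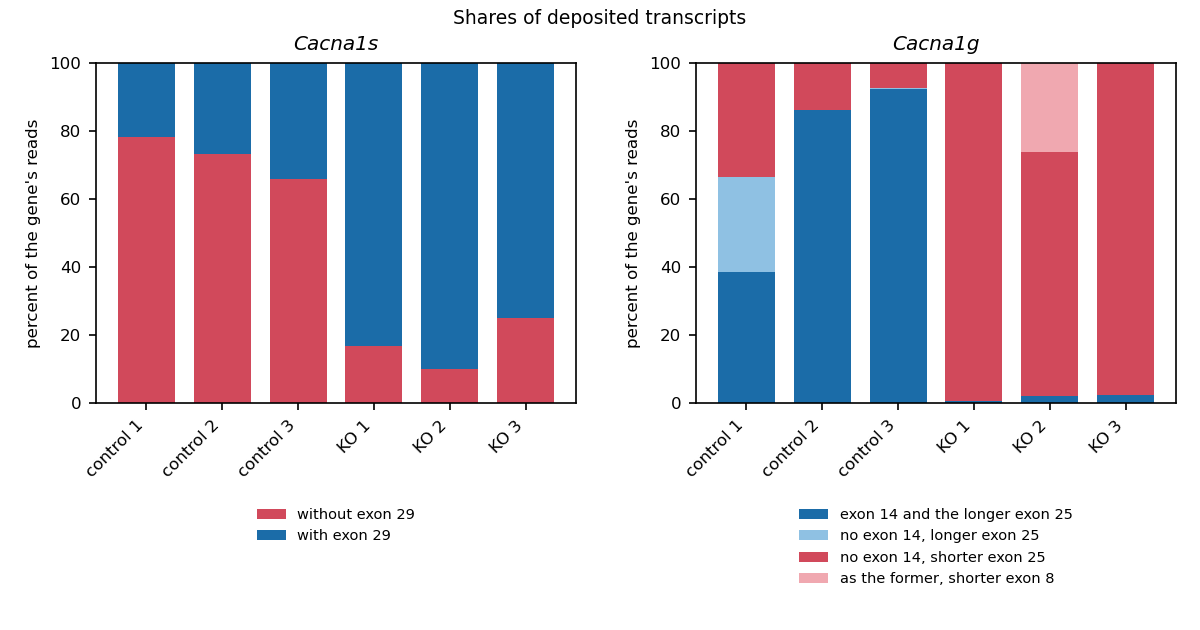
Percent of the reads of Cacna1s (left) and Cacna1g (right) assigned to each deposited transcript in each library, as stacked bars from 0 to 100. For Cacna1s the form without exon 29 holds 65.9% to 78.3% in the controls and 10.1% to 25.2% in the KO libraries, and for Cacna1g the form with exon 14 and the longer exon 25 holds at most 2.30% in the KO libraries.

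Cacna1h, the other T-type pore of the heart (Cav3.2), did not pass by edgeR. Reads gave 32.8, 16.9 and 14.2 CPM in control 1, 2 and 3 and 11.9, 8.11 and 8.10 CPM in KO 1, 2 and 3. Each KO library lay below each control, with control 1 standing above the rest (log2 fold change -1.18, SE 0.35, adjusted p = 0.0978). DESeq2 called it, and so did edgeR without control 3, a setting in which 1909 of all 14775 genes tested were called lower. Without KO 1 the log2 fold change was -1.39 (adjusted p = 0.168).

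Of the calcium channel beta subunits, which bring the pore to the membrane, none passed by edgeR. Cacnb2, the main cardiac one, was at 104, 92.4 and 75.2 CPM in control 1, 2 and 3 and at 59.9, 32.9 and 58.9 CPM in KO 1, 2 and 3. Each KO library lay below each control (log2 fold change -0.84, SE 0.25, adjusted p = 0.0995), and DESeq2 called it (adjusted p = 0.0185). Without KO 1 the log2 fold change was -0.98 (adjusted p = 0.174). Cacnb3, a beta subunit of smooth muscle, nerve and immune cells, lay the other way, at 6.28, 12.8 and 15.6 CPM in the controls and 20.7, 25.1 and 20.2 CPM in the KO libraries (log2 fold change 0.93, SE 0.32, adjusted p = 0.133). It was 0.97 without KO 1 (adjusted p = 0.243). Cacnb1, the skeletal muscle beta subunit that pairs with Cav1.1, overlapped, at 9.81, 5.97 and 5.59 CPM in the controls and 5.56, 7.49 and 9.60 CPM in the KO libraries.

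Alpha2delta subunits anchor the channel complex from outside the membrane. Cacna2d1 was at 418, 480 and 263 CPM in control 1, 2 and 3 and at 289, 234 and 312 CPM in KO 1, 2 and 3. Control 3 fell among the KO libraries (log2 fold change -0.47, SE 0.24, adjusted p = 0.270). The value was 0.09 without control 1 and 2, and without control 3 it was -0.69 and passed (adjusted p = 0.0304 by edgeR). Without control 3, 1909 of all 14775 genes tested were called lower. Cacna2d2 was at 16.4, 4.86 and 1.82 CPM in the controls and 4.90, 1.65 and 1.02 CPM in the KO libraries, a spread within control wider than that between the genotypes. Of 8 gamma subunit genes 2 were tested. Cacng7 held 29, 21 and 23 reads in the controls and 89, 71 and 78 in the KO libraries, and did not pass by edgeR (log2 fold change 1.23, adjusted p = 0.113, and 1.10 with 0.289 without KO 1), while DESeq2 and limma called it. Cacng6, a gamma subunit of striated muscle, held 15, 35 and 26 reads in the controls and 8, 0 and 13 in the KO libraries, also without passing (adjusted p = 0.258).

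None of the HCN genes tested passed by edgeR or limma. Hcn4 had an unadjusted p under 0.05 and was called by DESeq2. Hcn2, an HCN channel of the ventricle, at 8.95 ± 4.39 FPKM in control and 4.81 ± 2.13 in knockout, was at 49.1, 27.5 and 16.0 CPM in control 1, 2 and 3 and at 12.9, 9.56 and 23.1 CPM in KO 1, 2 and 3. The groups overlapped through control 3 and KO 3 (log2 fold change -1.02, SE 0.47, adjusted p = 0.226). Hcn4, the main pacemaker channel of the sinoatrial node and conduction system, was at 20.6, 9.30 and 6.41 CPM in the controls and 4.83, 1.71 and 1.90 CPM in the KO libraries. Each KO library lay below each control, with control 1 at more than 2 times any other library (log2 fold change -2.11, adjusted p = 0.0905). Without control 1 it was -1.48 (adjusted p = 0.241), and without KO 1 it was -2.75 (adjusted p = 0.117). Markers of the conduction system, a list that contains Hcn4, summed to 141, 80.3 and 66.3 CPM in control 1, 2 and 3 and to 83.0, 79.2 and 58.0 CPM in KO 1, 2 and 3. The conduction marker Cntn2 was at 61.4 CPM in control 1 and at 7.15 to 16.7 CPM in the others, and Isl1 was at most 0.649 CPM. Shox2 lay the other way, at 1.16 to 2.60 CPM in the controls and 3.62 to 3.87 CPM in the KO libraries. Gja5 was at 16.8, 19.7 and 12.8 CPM in the controls and at 33.3, 30.5 and 16.8 CPM in KO 1, 2 and 3. Of the 6 tested, Hcn4 included, 0 passed by edgeR, with 2 higher and 2 lower at an unadjusted p under 0.05. The 10 atrial markers summed to 1010.5 to 2719.8 CPM in the controls and to 4508.7 to 5554 CPM in the KO libraries, most of it Nppa and Pam, with Bmp10 at 0 reads in all 6 and none of 9 tested past edgeR's test (3 higher and 1 lower at an unadjusted p under 0.05, 2 higher by DESeq2). The part of conduction or atrial tissue in the HCN values was not tested.

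With all 6 libraries, none of the 11 TRP genes tested passed by edgeR, DESeq2 or limma, and 0 had an unadjusted p under 0.05. Without control 3 edgeR called Trpv2 (log2 fold change 0.93, adjusted p = 0.0292) and Trpm6 higher. In that setting 1719 of all 14775 genes tested were called higher, against 378 of 14466 with all 6 libraries. Trpm7, a magnesium-permeable channel with a kinase domain, was at 125, 129 and 146 CPM in control 1, 2 and 3 and at 132, 165 and 169 CPM in KO 1, 2 and 3. The ranges overlapped (log2 fold change 0.22, SE 0.14, adjusted p = 0.371). Trpm4, a calcium-activated cation channel of cardiac conduction and muscle, varied little, at 18.6, 19.2 and 18.2 CPM in the controls and 18.9, 17.4 and 20.6 CPM in the KO libraries (log2 fold change 0.02, SE 0.12, adjusted p = 0.937, and a log2 fold change of -0.00027 with DESeq2). Trpm3 was at 6.52, 7.18 and 3.65 CPM in the controls and 8.25, 3.38 and 5.55 CPM in the KO libraries, with no separation.

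The TRPC channels open downstream of phospholipase C. Trpc1 was at 19.96, 18.3 and 12.9 CPM in control 1, 2 and 3 and at 14.4, 14.4 and 19.4 CPM in KO 1, 2 and 3 (log2 fold change -0.09, SE 0.22, adjusted p = 0.838, and a log2 fold change of 0.02 in limma on log2(FPKM + 1)). Its groups overlapped. Of the TRPV channels, Trpv2, found in muscle and macrophages, was at 7.55, 8.24 and 14.9 CPM in the controls and 16.3, 17.2 and 11.8 CPM in the KO libraries (log2 fold change 0.56, SE 0.30, adjusted p = 0.293). Control 3 and KO 3 lay between the others, while 8 macrophage markers summed to 764, 1070.0 and 2251 CPM in control 1, 2 and 3 and to 1937, 2658 and 1699 CPM in KO 1, 2 and 3. Lyz2 was the largest of the 8 in each library, and the list was not uniform. Adgre1 and C1qb were higher in each KO library than in each control. Cd163 lay the other way, at 24.7, 23.5 and 59.5 CPM in the controls and 15.7, 17.3 and 14.7 CPM in the KO libraries. The other markers overlapped between genotypes, and 0 of the 8 passed by edgeR. The part of macrophages in Trpv2 was not tested. Trpv4, a stretch- and heat-responsive channel, was at 5.15, 5.01 and 6.69 CPM in the controls and 4.73, 4.92 and 4.31 CPM in the KO libraries. These lay below every control by a small margin (log2 fold change -0.27, adjusted p = 0.503 by edgeR). On the deposited FPKM its groups overlapped, at 1.43, 1.39 and 2.19 in the controls and 1.47, 1.62 and 1.32 in the KO libraries. Trpc4ap was at 104, 110 and 95.6 CPM in the controls and 91.5, 83.1 and 96.1 CPM in the KO libraries, with overlap through control 3 and KO 3 (log2 fold change -0.19, SE 0.11, adjusted p = 0.322).

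Since the summed cardiomyocyte markers lay lower in each KO library than in each control, with 0 of the 8 markers past edgeR's test (6 at an unadjusted p under 0.05 and 6 lower by DESeq2, 0 by limma), the channels were also read relative to that sum. In such bulk tissue fewer cardiomyocytes and less RNA per cardiomyocyte cannot be told apart. Per 10000 CPM of the marker sum, 3 of the 40 tested channel genes were lower in every KO library than in every control, against 1.51% of all genes, and 14 were higher, against 54.3%. The 3 were Scn4a, Scn4b and Hcn4. Scn4a was at 6.49, 6.28 and 5.51 in control 1, 2 and 3 and at 3.42, 2.87 and 3.0 in KO 1, 2 and 3, so that the spread between controls seen in CPM was much smaller on this scale. Scn4b was at 7.05, 6.52 and 10.03 in the controls and 3.59, 2.35 and 4.5 in the KO libraries. Hcn4 was at 2.72, 1.29 and 1.43 in the controls and 1.25, 0.737 and 0.473 in the KO libraries, a narrow gap.

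Other channels changed place on that scale. Cacna1s, at 1.28, 1.63 and 2.99 in control 1, 2 and 3 and at 0.793, 1.68 and 1.34 in KO 1, 2 and 3, overlapped, and so did Cacnb2 and Cacna1h. Cacna1c was at 49.3, 56.4 and 55.9 in the controls and 66.8, 102 and 80.5 in the KO libraries, above every control, as was Cacna2d1. Several of these genes are also expressed in other cell types, and Ryr2 and the other markers stand for cardiomyocytes as a whole, so the ratio is a description.

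**Figure D4:**
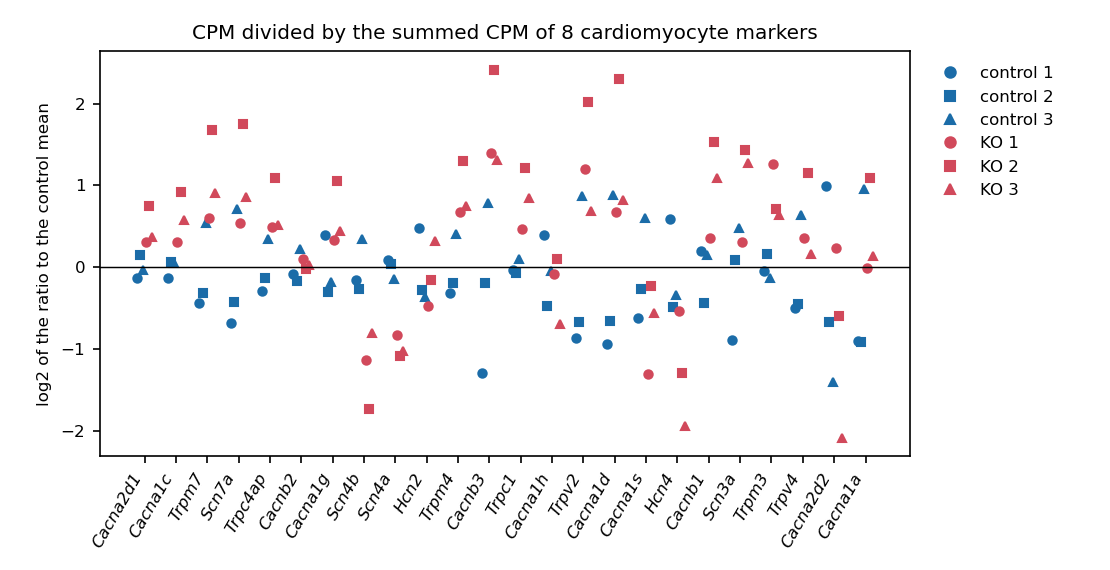
CPM of each channel gene reported here with a mean of at least 5 CPM divided by the summed CPM of 8 cardiomyocyte markers, plotted as log2 of the ratio to the control mean, with controls in blue, KO libraries in red and library numbers as symbols. For Scn4a, Scn4b and Hcn4 all red symbols lie below all blue ones, and for Cacna1s they overlap.

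A single library set the value of several low-abundance channels. Of the 46 genes counted, 14 were highest in control 1, 6 in control 2, 10 in control 3, 3 in KO 1, 8 in KO 2 and 5 in KO 3. In 8 the highest library was at least 2 times the next. These were Hcn4, Cacna2d2 and Trpc4 in control 1, Cacna1e, Cacna1i and Trpv1 in control 3, Trpv3 in KO 1 and Cacna1f in KO 3. Cacna1e, an R-type pore, was at 0.588, 0.144 and 18.2 CPM in control 1, 2 and 3 and at 0.483, 4.61 and 1.06 CPM in KO 1, 2 and 3. Cacna1i, a further T-type pore, held 6, 0 and 473 reads in the controls and 6, 94 and 17 in the KO libraries. Trpv1, the capsaicin receptor, held 0, 3 and 74 reads in the controls and 0, 18 and 3 in the KO libraries. All 3 were highest in control 3 and next highest in KO 2. The B cell gene Ms4a1 had the same order, at 1.47, 0.578 and 87.5 CPM in the controls and 1.69, 17.0 and 1.79 CPM in the KO libraries, and the 6 lymphocyte markers in the table summed to 5.10, 5.78 and 216 CPM and to 6.90, 43.2 and 6.28 CPM. The summed adipocyte markers were also highest in control 3 (1370 CPM) and then in KO 2 (784 CPM), Adipoq being at 11.6, 8.52 and 131 CPM in the controls and at 28.5, 48.2 and 0.219 CPM in KO 1, 2 and 3. The part of lymphocytes or fat in these values was not tested.

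**Figure D5:**
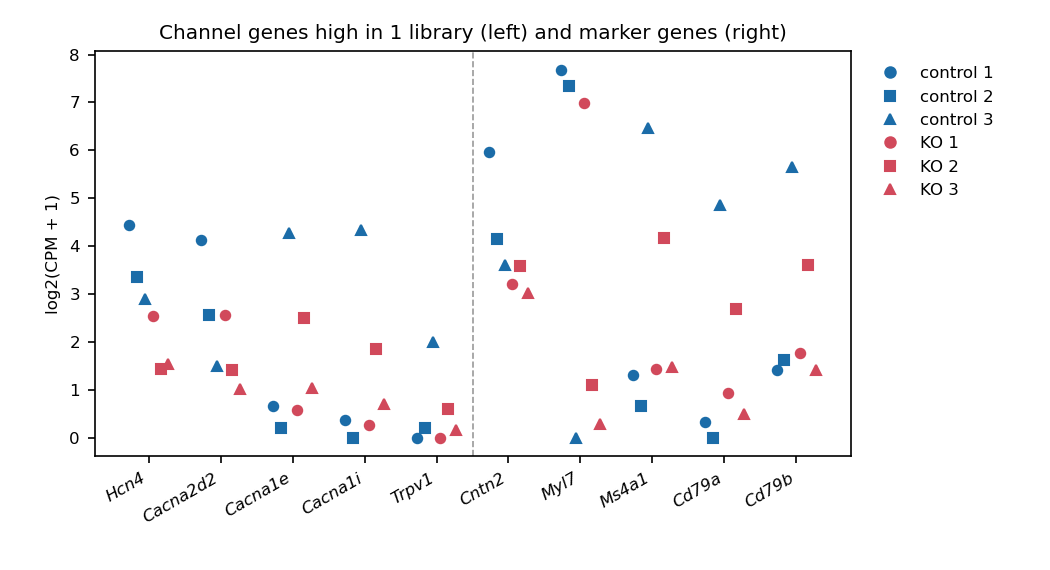
Level in each library, as log2(CPM + 1), of 5 channel genes highest in a single library (left of the dashed line) and of 5 marker genes (right), with controls in blue and KO libraries in red. Cacna1e, Cacna1i and Trpv1 are highest in control 3 and then in KO 2, as are the B cell genes Ms4a1, Cd79a and Cd79b, and Hcn4, Cacna2d2 and the conduction marker Cntn2 are highest in control 1.

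The proteins that anchor, regulate or work beside these channels were read from lists of 80 genes, of which 78 were in the table and 74 were tested. Of the 74, 2 rose and 0 fell by edgeR, against 2.61% and 1.09% of all genes, and the median log2 fold change was -0.11. At an unadjusted p under 0.05, 8 were higher and 14 lower, against 12.3% and 13.5% of all genes. DESeq2 called 4 higher and 11 lower, against 7.75% and 9.23%, and limma 4 higher and 1 lower, against 3.66% and 2.32%. The genes that rose by edgeR both belong to the list of TRP and store-operated partners (2 of 18, median 0.15). Pkd2, a TRP-family cation channel (polycystin 2), was at 111, 107 and 108 CPM in control 1, 2 and 3 and at 183, 216 and 225 CPM in KO 1, 2 and 3. The controls were nearly equal and every KO library was well above them (log2 fold change 0.94, SE 0.12, adjusted p = 0.0194). Pkd1, its receptor-like partner polycystin 1, was at 229, 217 and 223 CPM in the controls and at 387, 421 and 432 CPM in the KO libraries, likewise with tight groups (log2 fold change 0.89, SE 0.12, adjusted p = 0.0204). Leaving out 1 library ended the call of Pkd1 except without control 3 (adjusted p = 0.0167), reaching 0.111, and that of Pkd2 except without control 3 (0.0168) and without KO 1 (0.0478), reaching 0.103. The 8 fibroblast markers summed to 5469, 14751 and 14848 CPM in control 1, 2 and 3 and to 25811, 31245 and 23632 CPM in KO 1, 2 and 3. Most of each sum was Col1a1 and Col3a1. The sum was higher in each KO library than in each control, and 2 of the 8 rose by edgeR (Postn and Mfap4). Col1a1, Col3a1, Lum and Tcf21 were also higher in each KO library, without passing. Pdgfra (log2 fold change 0.25, adjusted p = 0.633 by edgeR) and Dcn (0.12, 0.761) overlapped. The part of fibroblasts in Pkd1 and Pkd2 was not tested.

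None of 18 sodium channel partners passed by edgeR (3 fitted higher, 15 lower, median -0.27), while 1 higher and 7 lower had an unadjusted p under 0.05 (12.3% and 13.5% of all genes). DESeq2 called 1 of the 18 higher and 6 lower (7.75% and 9.23% of all genes). None passed by edgeR among 22 calcium channel partners (median -0.01), 5 pacemaker partners (median -0.17) or 11 sodium and calcium transport companions (median 0.07). DESeq2 called 2 lower of the 22, 0 of the 5 and 2 lower of the 11. Abundant partners outside those that rose included Ahnak, Xirp2, Ryr2 and Slc8a1. Xirp2, an actin-binding protein of the intercalated disc, was at 2376, 1931 and 1225 CPM in control 1, 2 and 3 and at 3514, 3944 and 5817 CPM in KO 1, 2 and 3, each above each control, and did not pass by edgeR (log2 fold change 1.26, adjusted p = 0.0764), while DESeq2 and limma called it. Ryr2, the release channel that L-type current opens, was at 3245, 3517 and 1943 CPM in the controls and 2777, 1652 and 2395 CPM in the KO libraries, with overlap (log2 fold change -0.35, adjusted p = 0.507). Slc8a1, the sodium-calcium exchanger, had a log2 fold change of 0.05 (adjusted p = 0.920), and Ahnak, a scaffold bound by the calcium channel beta subunit, 0.20 (adjusted p = 0.546).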

How the data were processed

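Total RNA libraries (a stranded kit, per the labels' protocols) were summarised by the authors as 1 deposited table of 36780 transcripts, with a raw read count and an FPKM per library. Bowtie2, HISAT2 and mm10 are named in the submitters' processing notes. Not given in the sources used here were the counting program, annotation, use of strand and division of reads between isoforms. Labels cover 2 samples, so columns were assigned to a genotype by name.

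Deposited counts were summed per symbol, 24542 in all, and tested in R 4.3.3 with edgeR 4.0.16 (TMM, filterByExpr, glmQLFit, glmQLFTest, genotype only, Benjamini-Hochberg over 14466 genes, adjusted p under 0.05, two-sided). The deposited FPKM values were summed likewise and used to compare genes with each other. Within a genotype all library pairs differed by more than sampling noise. The code was checked on simulated counts.

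Members and lists were chosen with earlier results of these data known. Each member with at least 20 reads is counted and all are described except some that are not reported here. CPM per library is given at a mean of at least 5 CPM, and for those past the test. Fold change with its standard error is given at 10 CPM or past the test. Partners named are those past the test and, of the 6 most abundant others, those that can be reported. Values given for further genes were chosen after they had been seen.

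Alternatives were RLE and upper-quartile scaling, DESeq2 1.42.0, no filter, a filter of 5 CPM, limma 3.58.1 on log2(FPKM + 1) or log2(FPKM + 0.1), the most abundant transcript alone, a block for the library number, each library left out, and both controls with atrial transcripts left out. Deposited transcripts were matched to GENCODE M21 through its RefSeq table.

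Several loci overlap another gene, and without known strand use their reads may not be separable. They include Cacna1c, Cacnb2, Hcn2, Trpm4, Cacna1h, Cacna1d, Trpm3, Cacna2d2, Scn2b, Trpc6 and Trpc4ap.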

Additional observations from a re-analysis of the deposited data

How the results depend on the processing

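The count of 0 channel genes higher and 2 lower was 0 and 2 with RLE scaling and with no filter. It was 0 and 3 with upper-quartile scaling and with the filter of 5 CPM, 2 and 6 with DESeq2, 1 and 2 with limma on either FPKM scale, and 0 and 1 with the most abundant transcript alone. It was 0 and 0 without both controls with atrial transcripts, a fit of 1 control against 3 KO libraries (KO 1, which also carries them, included) whose lone control is taken to vary like the KO libraries. Leaving out 1 library gave 0 to 4 higher and 0 to 7 lower, the upper values without control 3. Without control 3, 41 channel genes were tested, and of all 14775 genes tested 1719 were higher and 1909 lower. In that setting the 4 higher included Cacnb3, Trpm6 and Trpv2. The 7 lower were Cacna1h, Cacna1s, Cacna2d1, Cacnb2, Hcn4, Scn4a and Scn4b. The cause of these changes was not tested, and fewer libraries also leave less power.

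For partners (2 higher, 0 lower), DESeq2 gave 4 and 11, limma 4 and 1 on both scales, leaving out both atrial controls 0 and 0, and leaving out 1 library 0 to 9 and 0 to 18. For all genes (378 higher, 157 lower), DESeq2 gave 1116 and 1329, the most abundant transcript 137 and 35, leaving out both atrial controls 25 and 6, leaving out 1 library 3 to 1719 and 0 to 1909, and limma 335 or 306 lower (pseudocount 1 or 0.1). Limma moved the median of all genes to 0.09 or 0.13.

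Library numbers did not pair the samples (same-number correlations of 0.307, -0.330 and -0.352). The replicate block gave 0 and 0 channel genes, 0 and 0 partners, and 6 and 0 of all genes.

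Log2 fold changes that turned sign were all of genes that did not pass. Without both atrial controls, Cacna2d1 was at 0.0894, Cacna1c at 0.128, Scn7a at -0.0796, Cacna1g at 0.368 and Trpc1 at 0.326. With the most abundant transcript, Cacna1c was at 0.292 and Cacna1g at 1.63. Leaving out 1 library, Cacna1g ranged from -0.643 (without control 3) to 0.0542 (without control 1), Trpc1 from -0.253 (without KO 3) to 0.0431 (without control 1) and Trpm4 from -0.0528 (without KO 3) to 0.0795 (without KO 2). Trpm4 was at -0.00027 with DESeq2, and Trpc1 at 0.0243 or 0.02998 with limma. Genes under about 1 CPM rest on few reads.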

Other observations

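Of the 6 described genes that were not tested, Cacna2d3, an alpha2delta subunit, held 18, 15 and 0 reads in control 1, 2 and 3 and 5, 3 and 0 reads in KO 1, 2 and 3. Trpc4 held 15 reads in control 1 and at most 6 in any other library. Cacna1b, a neuronal N-type pore, held 3 to 12 reads per library, and Cacna1f, known from the retina, held 0 to 14. Trpv3 held 0 to 10 reads per library. The skeletal muscle gamma subunit Cacng1, which joins Cav1.1, held 14 reads over all 6 libraries. Among low-abundance TRP genes, Trpm6, a magnesium-permeable relative of Trpm7, was at 1.42, 1.30 and 4.66 CPM in control 1, 2 and 3 and at 3.83, 7.52 and 3.14 CPM in KO 1, 2 and 3, and Trpm2 was at 0.294, 1.83 and 6.49 CPM and at 2.24, 4.39 and 3.72 CPM. Both overlapped between genotypes.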
